A study of Caenorhabditis elegans with 2 samples.

Results

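The proteasome, CCT and DnaJ genes of Caenorhabditis elegans were taken as the protein-coding genes whose symbols start with pas-, pbs-, rpt-, rpn-, cct- or dnj-, and 70 of the 19973 protein-coding genes of the nuclear chromosomes met that rule. They comprised 7 pas, 7 pbs, 6 rpt, 13 rpn, 8 cct and 29 dnj genes. The rule used names and no measured value, but it was chosen with earlier results of these data known. Each was described by its ranks in ALR-1 ChIP-seq, an assay in which DNA bound by a protein is pulled down with an antibody and sequenced. ALR-1 is a transcription factor with a homeodomain, of the aristaless family, known in the worm for its part in the development of sensory neurons.

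The chromatin came from whole, mixed sex L1 larvae, 6 hours old, that had been starved after bleaching. All animals were of strain OP362, which carries unc-119(tm4063) III and the transgene wgIs362, so that the ALR-1 pulled down by the anti-GFP antibody was a transgenic protein with a GFP-FLAG tag at its C-terminus. There was 1 group, with 2 biological replicates, and no other genotype, stage or antibody was set against it. Since whole animals were used, strong binding in few cells and weak binding in many cannot be told apart. The deposited data were 3 lists of 30000 regions, 1 for replicate 1, 1 for replicate 2 and 1 for the pooled replicates, and a short list of regions that passed a threshold on the irreproducible discovery rate (IDR). The IDR peaks coincided with the very top of the pooled ranks, and no pooled region ranked above any of them was left out, so they add no evidence separate from those ranks.

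Each region carries the authors' signal value, made against a control that was not analysed here, and a rank of 1 marks the highest signal of a list. The lists mix peaks with background, so a place in a list is no call of binding, and the read depth behind them is unknown. For each gene the best rank was that of any region whose summit lay in the gene or up to 1500 bp upstream of its 5′ end. The top 1000 regions of a list served as the call. At rank 1000 the signal was 46.1 in replicate 1, 49.8 in replicate 2 and 87.9 in the pooled list, beside highest signals of 102, 102 and 204 and medians of 27.8, 29.8 and 53.3 in the same order of lists. Signals were compared only within a list.

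The proteasome is the barrel-shaped protease that degrades proteins tagged with ubiquitin. Its core particle is built from rings of alpha subunits (the pas genes) and beta subunits (the pbs genes), and the cap that feeds it holds a ring of ATPases (the rpt genes) that unfold substrates and a set of other subunits (the rpn genes) that bind and trim ubiquitin. CCT, also called TRiC, is a ring-shaped chaperonin, built from the cct genes, that folds actin and tubulin in the cytosol. DnaJ proteins, encoded by the dnj genes, bring clients to Hsp70 chaperones and stimulate their ATPase, and different members serve the cytosol, the endoplasmic reticulum, the mitochondria or the synapse.

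High-ranked regions lay in or just upstream of a larger share of these genes than of protein-coding genes as a whole, in each list. In the pooled list, 12 of the 70 genes had a summit among the top 1000 (17.1%), beside 5.65% of all protein-coding genes. In replicate 1 there were 13 such genes (18.6%), beside 5.62% of all protein-coding genes. In replicate 2 there were 12 (17.1%), beside 5.54%. Taking the top 1000 of at least 1 of the lists gave 21 genes, or 30% of the 70, beside 10.2% of all protein-coding genes. These shares are descriptions: the design has no second condition, and no test was made of the gene set. The window searched was no longer in these genes, with a median of 3465 bp against 3527 bp over all protein-coding genes.

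**Figure D1:**
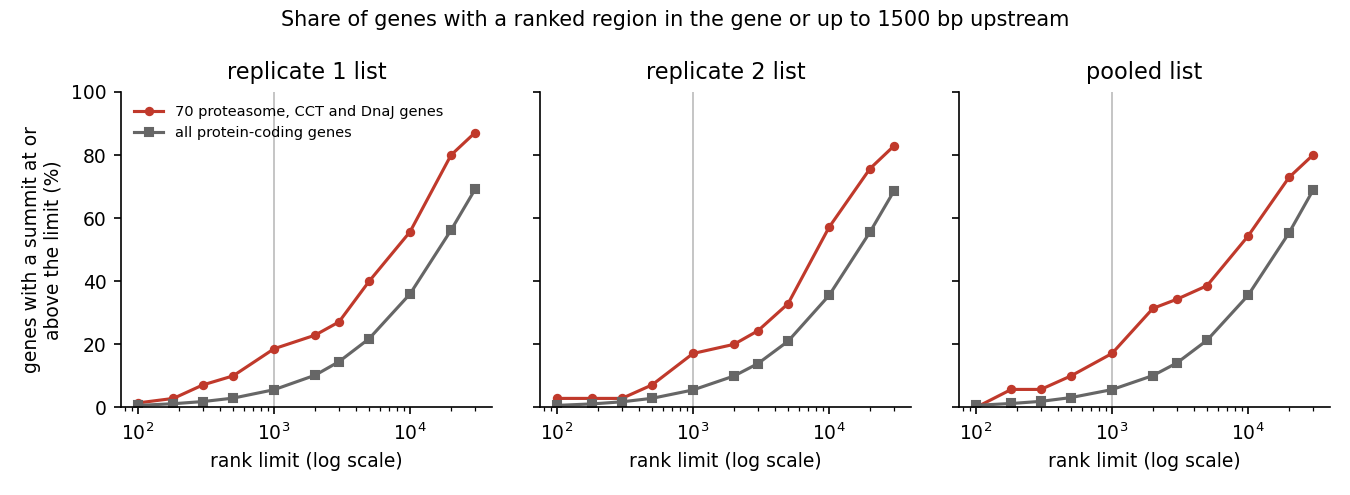
Share of genes (percent, vertical axis) with a summit in the gene or up to 1500 bp upstream at or above a rank limit (log scale, horizontal axis), for the 70 proteasome, CCT and DnaJ genes (red) and all protein-coding genes (grey), in the lists of replicate 1, replicate 2 and the pooled replicates. At a limit of 1000, marked by the vertical line, the 70 genes stood at 18.6%, 17.1% and 17.1%, and all protein-coding genes at 5.62%, 5.54% and 5.65%.

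As a ratio of the shares, the excess was smaller when all 30000 regions of a list were allowed. In percentage points it did not shrink in either replicate. A summit of any rank lay in or upstream of 61 of the 70 genes in replicate 1 (87.1%), beside 69.1% of all protein-coding genes. In replicate 2 it did so for 58 (82.9%), beside 68.6%. In the pooled list it did so for 56 (80%), beside 68.8%. The median best rank in the pooled list was 6893 over those 56 genes, against 9566 over the protein-coding genes with a summit. It was 7291 against 9426 in replicate 1 and 6429 against 9482 in replicate 2. The windows of the 70 genes held 0.049 top 1000 summits per kb in the pooled list, against 0.0132 per kb over all protein-coding genes, while the density of summits of any rank was 0.392 per kb against 0.32 per kb.

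The 6 sequences below, of 150 bases each, show what lay under the pooled summits of 6 members of the pooled top 1000. Stretches with untranslated sequence were left out. The 6 were not chosen by rank alone. Both pbs-2, at pooled rank 133, and dnj-12, at 495, outrank some of them and are not printed. In each, most of the bases code for protein, and 3 of the 6 stretches are coding throughout. Leaving out untranslated sequence favours a high coding share, and no other regions were set beside these stretches. Each is read 5′ to 3′ on the strand of its gene in the ce11 build, with the coding bases of that gene in capitals and intronic or upstream bases in lower case.
dnj-1 (chrIV:11299104-11299253, plus strand): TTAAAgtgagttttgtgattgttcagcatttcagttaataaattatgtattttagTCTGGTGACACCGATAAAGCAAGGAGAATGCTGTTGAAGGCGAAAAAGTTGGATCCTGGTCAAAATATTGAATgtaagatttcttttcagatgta
rpt-4 (chrII:42680-42829, minus strand): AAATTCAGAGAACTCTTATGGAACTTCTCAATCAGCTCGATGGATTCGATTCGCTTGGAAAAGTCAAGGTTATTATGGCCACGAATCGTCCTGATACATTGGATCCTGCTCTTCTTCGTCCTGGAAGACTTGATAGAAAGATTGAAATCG
pbs-6 (chrIII:8243996-8244145, minus strand): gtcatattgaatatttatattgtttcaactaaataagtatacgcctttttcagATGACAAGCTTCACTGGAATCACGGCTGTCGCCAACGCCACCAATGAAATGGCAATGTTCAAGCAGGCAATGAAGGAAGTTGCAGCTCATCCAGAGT
rpn-3 (chrIII:8447395-8447544, plus strand): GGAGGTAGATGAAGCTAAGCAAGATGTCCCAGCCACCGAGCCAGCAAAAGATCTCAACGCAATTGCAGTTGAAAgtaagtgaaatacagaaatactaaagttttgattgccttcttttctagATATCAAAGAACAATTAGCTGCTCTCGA
cct-4 (chrII:8283940-8284089, plus strand): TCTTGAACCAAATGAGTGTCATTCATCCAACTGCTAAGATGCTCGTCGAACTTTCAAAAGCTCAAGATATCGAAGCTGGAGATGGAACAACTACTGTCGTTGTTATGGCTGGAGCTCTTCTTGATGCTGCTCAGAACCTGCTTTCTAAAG
dnj-11 (chrIV:6586533-6586682, plus strand): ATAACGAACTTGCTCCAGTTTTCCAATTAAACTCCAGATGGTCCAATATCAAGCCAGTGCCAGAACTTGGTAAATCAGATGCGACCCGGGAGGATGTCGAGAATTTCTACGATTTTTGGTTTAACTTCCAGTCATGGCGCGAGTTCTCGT
The pbs-6 stretch runs across the start of the gene, so its capitals open with the ATG start codon. In the dnj-1 and rpn-3 stretches the lower case bases are introns, and of the 6 summits only that of rpn-3 lies in an intron itself. The number of coding bases was 78 of 150 in dnj-1, 97 in pbs-6, 102 in rpn-3, and 150 in rpt-4, cct-4 and dnj-11.

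Of the 14 genes of the core particle, 6 were in the top 1000 of at least 1 list (42.9%), beside 10.2% of all protein-coding genes. In the pooled list 4 were (28.6%, beside 5.65%), in replicate 1 there were 3 (21.4%, beside 5.62%) and in replicate 2 there were 4 (28.6%, beside 5.54%). The highest was pbs-2, which encodes a catalytic beta subunit. Its best ranks were 210 in replicate 1, 387 in replicate 2 and 133 in the pooled list, with signals of 56.2, 56.5 and 112 in that order. The 3 summits lay between 90 and 123 bp downstream of the 5′ end, in a coding exon, and the pooled region (chrI:12967975-12968338) was an IDR peak. Both replicates thus placed pbs-2 high, at nearly the same base.

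Of the other beta subunit genes, pbs-6 and pbs-5 were high in 1 replicate each. For pbs-6 the best ranks were 7961 in replicate 1, 72 in replicate 2 and 362 in the pooled list, with the pooled summit 21 bp past the 5′ end, where the start codon shown above lies. The nearest replicate 1 summit was 186 bp from the pooled one. For pbs-5, another catalytic beta subunit, they were 654 in replicate 1, 10910 in replicate 2 and 811 in the pooled list. Its pooled and replicate 1 summits both lay 129 bp into the gene, in a coding exon, where the matching replicate 2 region ranked 22780. Replicate 2 therefore carried the pooled rank of pbs-6, and replicate 1 that of pbs-5. None of pbs-1, pbs-3 and pbs-7 reached the top 1000 of a list: their best were 22185, in replicate 2 alone, for pbs-1, 1335, in replicate 2, for pbs-3, and 2886, in replicate 2, for pbs-7. The remaining gene, pbs-4, had no summit in any list.

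Among the alpha subunits, pas-5 ranked 218 in replicate 1, 5038 in replicate 2 and 736 in the pooled list. Replicate 1 had a pair of high regions there, the other at rank 224, and that one, 8 bp upstream of the gene, matched the pooled summit, 1 bp past the 5′ end in the untranslated region. In pas-6 the best ranks were 3248, 568 and 1359 in replicate 1, replicate 2 and the pooled list, and the replicate 2 region of rank 568 lay 250 bp into the gene while the other lists had their best summit 886 bp in. In pas-1 they were 9510, 407 and 7157, and the replicate 2 summit lay 350 bp upstream of the gene, inside an intron of rpoa-12. So of the 3 alpha genes with a top 1000 region, none had it in both replicates. The rest, in the same order of lists, were pas-3, with 4432, 6879 and 2712, pas-4, with 10573, 10627 and 7967, pas-7, at 11634 and 17650 with no pooled summit, and pas-2, with no summit in any list.

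**Figure D2:**
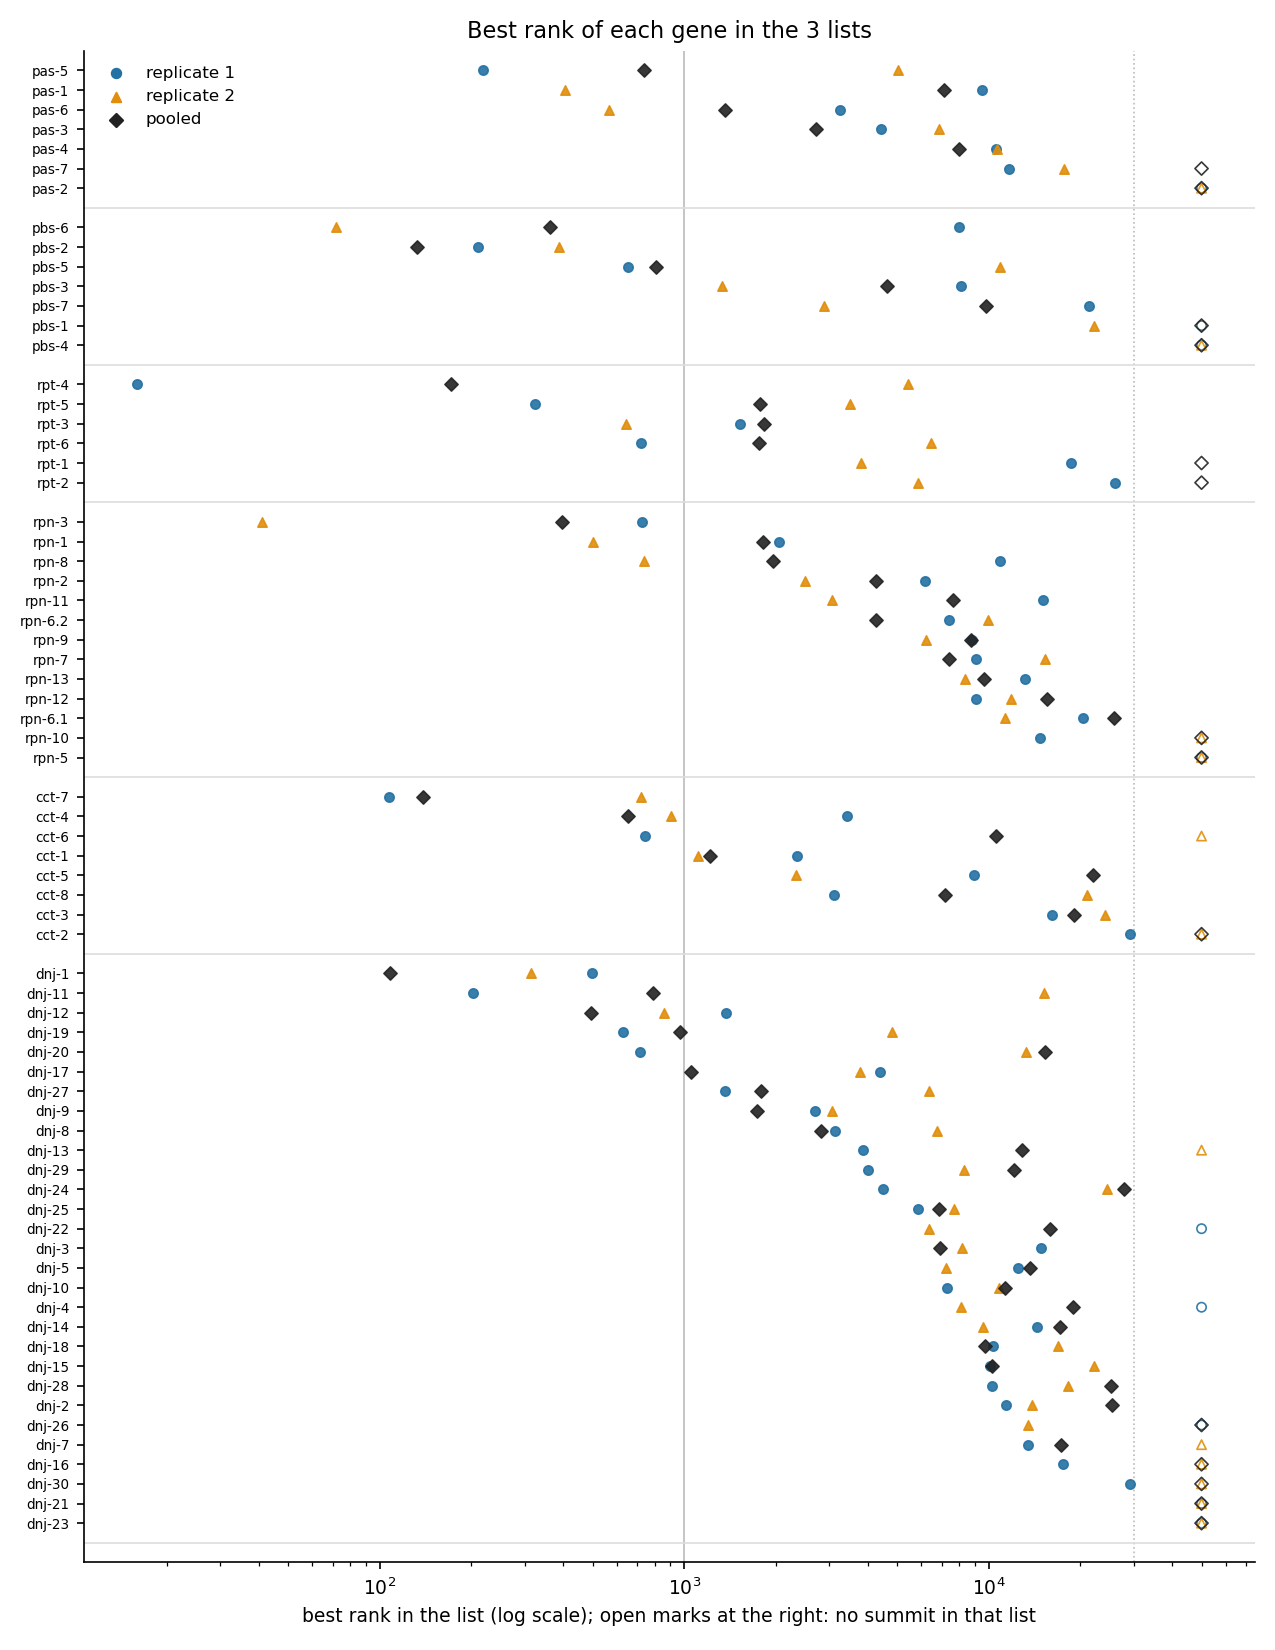
Best rank (log scale, horizontal axis) of each of the 70 genes (rows, grouped by family and ordered by best rank) in the lists of replicate 1 (blue circles), replicate 2 (orange triangles) and the pooled replicates (black diamonds). The line at 1000 marks the call; open marks on the right stand for no summit in that list, and only pbs-2, rpn-3, cct-7 and dnj-1 have all 3 marks left of the line.

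Of the 19 genes of the cap, 7 were in the top 1000 of at least 1 list (36.8%), beside 10.2% of all protein-coding genes. In the pooled list 2 were (10.5%, beside 5.65%), namely rpt-4 and rpn-3, and in each replicate 4 were (21.1%, beside 5.62% in replicate 1 and 5.54% in replicate 2). The ATPase gene rpt-4 held the best rank of any member in any list, 16 in replicate 1, with a signal of 74.2. Its best ranks in the other lists were 5442 in replicate 2 and 171 in the pooled list, all at 3422 to 3487 bp from the 5′ end, in the coding exon whose sequence is shown above. The pooled region (chrII:42573-42936) was an IDR peak, although the replicate 2 region at the same place was far from the top of its list.

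For the ATPase gene rpt-5 the best ranks were 323 in replicate 1, 3499 in replicate 2 and 1778 in the pooled list. For rpt-6 they were 722, 6477 and 1756 in the same order. For rpt-3 they were 1520, 643 and 1824. The places differed between replicates in each: the replicate 1 region of rpt-5 lay 143 bp into the gene and the best replicate 2 region 126 bp upstream of it. In rpt-6 the replicate 1 summit was 220 bp into the gene, in a coding exon, and the replicate 2 summit was in the 3′ untranslated region. In rpt-3 the replicate 2 summit lay 253 bp upstream, in no other gene, and the replicate 1 and pooled summits lay further upstream, inside a coding exon of chtb-2. The other ATPase genes, rpt-1 (18582 and 3811) and rpt-2 (25929 and 5840, replicate 1 and replicate 2), had no summit in the pooled list.

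The lid subunit gene rpn-3 was in the top 1000 of all 3 lists, at rank 727 in replicate 1, 41 in replicate 2 and 396 in the pooled list. These were not the same place. The replicate 2 summit lay 116 bp into the gene, in a short intron, where the replicate 1 region ranked 8035. The replicate 1 summit lay 1115 bp in, in a coding exon, where the replicate 2 region ranked 5422 and a further pooled region ranked 925. For rpn-1, a scaffold subunit of the base that binds ubiquitin-like domains, the best ranks were 2051, 501 and 1811 in replicate 1, replicate 2 and the pooled list. Its pooled summit, 2198 bp into the gene in a coding exon, had the highest GC content of any pooled summit in these windows, 65.2% within 100 bp.

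For rpn-8, the lid partner of the deubiquitinase RPN-11, the best ranks were 10864 in replicate 1, 737 in replicate 2 and 1961 in the pooled list. All 3 summits lay more than 1000 bp upstream, inside a coding exon of mrps-6. The deubiquitinase gene itself, rpn-11, had best ranks of 15118, 3063 and 7623 in the same order of lists. The ubiquitin receptor gene rpn-13 had 13142, 8374 and 9644, and the other receptor gene, rpn-10, had a summit in replicate 1 alone, at 14766. No ubiquitin receptor gene of the rpn family, with the exception of rpn-1, was thus in the top 1000 of a list. For the scaffold gene rpn-2 they were 6195, 2489 and 4264. The median best rank of the rpn genes with a summit was 9087 in replicate 1, 6208 in replicate 2 and 7399 in the pooled list. That of the rpt genes was 1121, 4626.5 and 1767 in the same order. That of the pas genes was 6971, 5958.5 and 2712, and that of the pbs genes 7961, 2110.5 and 811. The order of the 4 families thus changed from list to list, and each median rests on few genes.

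In the CCT chaperonin, 3 of 8 subunit genes were in the top 1000 of at least 1 list (37.5%), beside 10.2% of all protein-coding genes. In each single list 2 were (25%), beside 5.62% of all protein-coding genes in replicate 1, 5.54% in replicate 2 and 5.65% in the pooled list. The highest was cct-7, with best ranks of 107 in replicate 1, 723 in replicate 2 and 139 in the pooled list, an IDR peak. That region lay 1280 to 1389 bp upstream of cct-7, inside T10B5.4, so the best rank of cct-7 cannot be assigned to cct-7 rather than to its neighbour. Within cct-7 itself there were 2 more pooled summits in the top 1000, both in coding exons. The summit 469 bp into the gene ranked 357 in the pooled list, with 155 in replicate 1 and 2263 in replicate 2 beside it. The summit 1882 bp in ranked 767 in the pooled list, with 10806 in replicate 1 and 893 in replicate 2.

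Having 3 top 1000 summits, cct-7 was the sole member with so many (1.43% of the 70), beside 0.0801% of all protein-coding genes. With rpn-3 it made 2 members with at least 2 (2.86%), beside 0.501% of all protein-coding genes. These counts were chosen after the values were seen. The other subunit genes were lower. For cct-4 the best ranks were 3422, 902 and 656 in replicate 1, replicate 2 and the pooled list, at summits 347 to 360 bp into the gene, all in a coding exon. For cct-6 they were 743 in replicate 1 and 10590 in the pooled list, with no replicate 2 summit at all. For cct-1 they were 2347, 1110 and 1214, at a summit inside a coding exon of mig-5. The remaining 4 subunit genes had best pooled ranks of 7199 (cct-8), 19067 (cct-3) and 21964 (cct-5), and cct-2 had a summit in replicate 1 alone, at 29136.

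Among the 29 DnaJ genes, 5 were in the top 1000 of at least 1 list (17.2%), beside 10.2% of all protein-coding genes. In the pooled list and in replicate 1 there were 4 (13.8%), beside 5.65% and 5.62%. In replicate 2 there were 2 (6.9%), near the 5.54% of all protein-coding genes. The highest was dnj-1, with best ranks of 498 in replicate 1, 314 in replicate 2 and 108 in the pooled list, the best pooled rank of all 70 genes. Its signals were 50.5, 58.0 and 115 in that order, and the 3 summits lay 143 to 173 bp into the gene, in a coding exon, within 30 bp of each other. Like pbs-2, dnj-1 was thus high in both replicates at a shared place inside the gene. It was an IDR peak.

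For dnj-12, which encodes a cytosolic DnaJ protein like human DNAJA1, the best ranks were 1373 in replicate 1, 856 in replicate 2 and 495 in the pooled list, within a coding exon. For dnj-11, a relative of the ribosome-associated protein zuotin of yeast, they were 202, 15146 and 787, at summits 714 to 749 bp into the gene, again in a coding exon. Replicate 1 alone placed dnj-11 high. For dnj-19, like human DNAJA2, they were 630, 4820 and 970 in the same order. Its summits lay 813 to 819 bp upstream, in an intron of the nuclear receptor gene nhr-47, and had a GC content of 28.9% within 100 bp, the lowest among the top 1000 summits of the 70 genes.

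For dnj-20, like the endoplasmic reticulum protein DNAJB11, they were 715 in replicate 1, 13239 in replicate 2 and 15353 in the pooled list. The gene just outside the pooled limit was dnj-17, at 1052, beside dnj-19 at 970 just inside it. Other DnaJ genes of known place in the cell were outside the top 1000 of every list. In dnj-27, like the endoplasmic reticulum protein ERdj5, the best ranks were 1363, 6381 and 1781 in replicate 1, replicate 2 and the pooled list. In dnj-13, a DNAJB1-type gene of the cytosol, they were 3855, none and 12829. In dnj-10, whose product is mitochondrial, they were 7291, 10783 and 11322. Of these, dnj-27 came closest to the limit. In dnj-14, the cysteine string protein gene of synapses, they were 14411, 9585 and 17145. In dnj-25, the auxilin gene of clathrin uncoating, they were 5857, 7720 and 6878. The median best rank of the dnj genes with a summit was 5172 in replicate 1, against 9426 over all protein-coding genes, and 8166 in replicate 2, against 9482. In the pooled list it was 10786.5, against 9566, so the direction turned round there.

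No summit of any list lay in or upstream of 5 members: pas-2, pbs-4, rpn-5, dnj-21 and dnj-23. A list holds 30000 regions and no more, so this says that no region there had a signal above the lowest listed, 21.8 in replicate 1, 23.3 in replicate 2 and 42.2 in the pooled list. A further 44 members had a summit in at least 1 list and none in a top 1000, and 51 members had a summit in all 3 lists. These counts have no share over all protein-coding genes beside them, so whether they are unusual cannot be said. The members on chromosome X, dnj-7 and dnj-14, were not in a top 1000, and the pooled top 1000 held 4 of 17 members on chromosome I, 2 of 17 on II, 2 of 15 on III, 2 of 9 on IV and 2 of 10 on V. Shares of all protein-coding genes by chromosome are not set beside these small counts, so no difference between chromosomes is read from them.

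The replicates named mostly different members. The top 1000 of both replicates held 4 of the 70 genes (5.71%), pbs-2, rpn-3, dnj-1 and cct-7, beside 1.74% of all protein-coding genes. They were 30.8% of the 13 genes of replicate 1 and 33.3% of the 12 of replicate 2. Over all protein-coding genes the corresponding shares were 31% and 31.4%. The summits were within 200 bp of each other in 3 of the 4 (4.29% of the 70), beside 1.27% of all protein-coding genes, and rpn-3 was the exception. They were both inside the gene and that close in 2, pbs-2 and dnj-1 (2.86%), beside 0.796%. These counts by place were added after the values were seen. An IDR peak lay in or upstream of 4 members (5.71%), dnj-1, pbs-2, cct-7 and rpt-4, beside 1.25% of all protein-coding genes.

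Across the 54 members with a summit in both replicate lists, Spearman's rho of the best ranks was 0.321 and Pearson's r of their logarithms was 0.258. Over the 11207 protein-coding genes with both, rho was 0.354 and r was 0.417. These are descriptions across genes, which share libraries, base composition and, for neighbours, the regions themselves, and they carry no p.

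**Figure D3:**
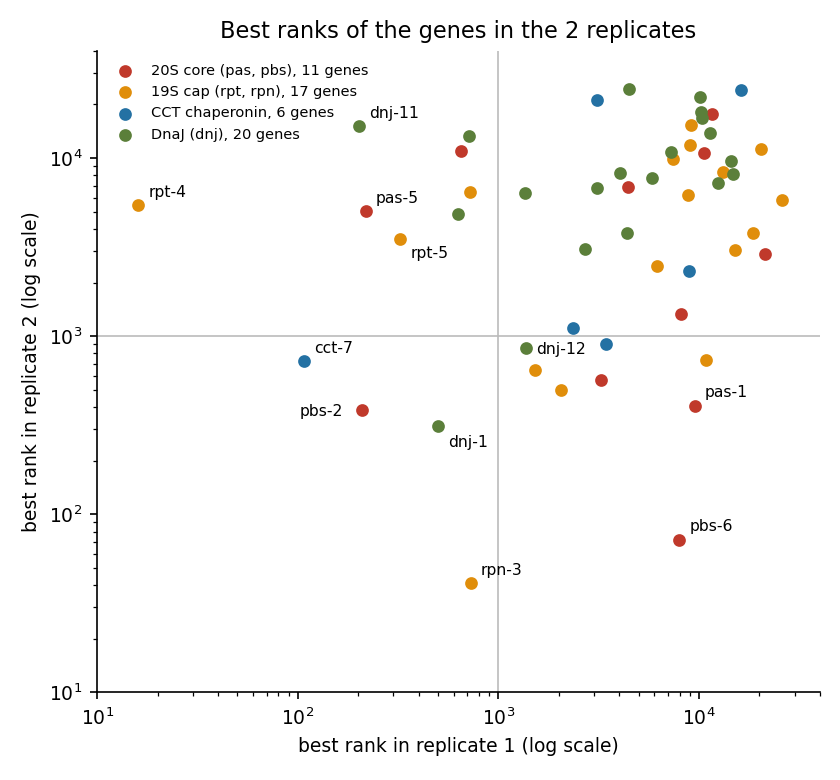
Best rank in replicate 1 (horizontal axis, log scale) against best rank in replicate 2 (vertical axis, log scale) for the 54 members with a summit in both lists, coloured by complex. Lines mark rank 1000; pbs-2, rpn-3, cct-7 and dnj-1 are at the lower left, and rpt-4, at 16 in replicate 1 and 5442 in replicate 2, and pbs-6, at 7961 and 72, stand far from the diagonal.

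Most of the high-ranked summits of these genes lay in coding exons of the genes themselves. Of the 12 members in the pooled top 1000, 10 had their best summit inside the gene (83.3%), 8 of them in a coding exon, 1 in an intron and 1 in the 5′ untranslated region. The other 2, cct-7 and dnj-19, had it upstream, inside another protein-coding gene. Among all 1129 protein-coding genes in the pooled top 1000, the best summit lay inside the gene in 64.4%, upstream in another coding gene in 24% and upstream in no coding gene in 11.6%, and in a coding exon of the gene itself in 39.6%. In replicate 1 the best summit lay in a coding exon of the gene itself in 11 of 13 members (84.6%), beside 44.5% of the protein-coding genes in its top 1000. In replicate 2 it did so in 7 of 12 (58.3%), beside 36.8%. The share with the best summit anywhere inside the gene was 84.6% in replicate 1, beside 66.8%, but in replicate 2 it was 8 of 12 (66.7%), near the 64.1% of the protein-coding genes in that top 1000. Since cct-7 also had top 1000 summits inside the gene, dnj-19 was the only member in the pooled top 1000 through a neighbouring gene alone. That is 1.43% of the 70, near the 1.3% of all protein-coding genes.

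**Figure D4:**
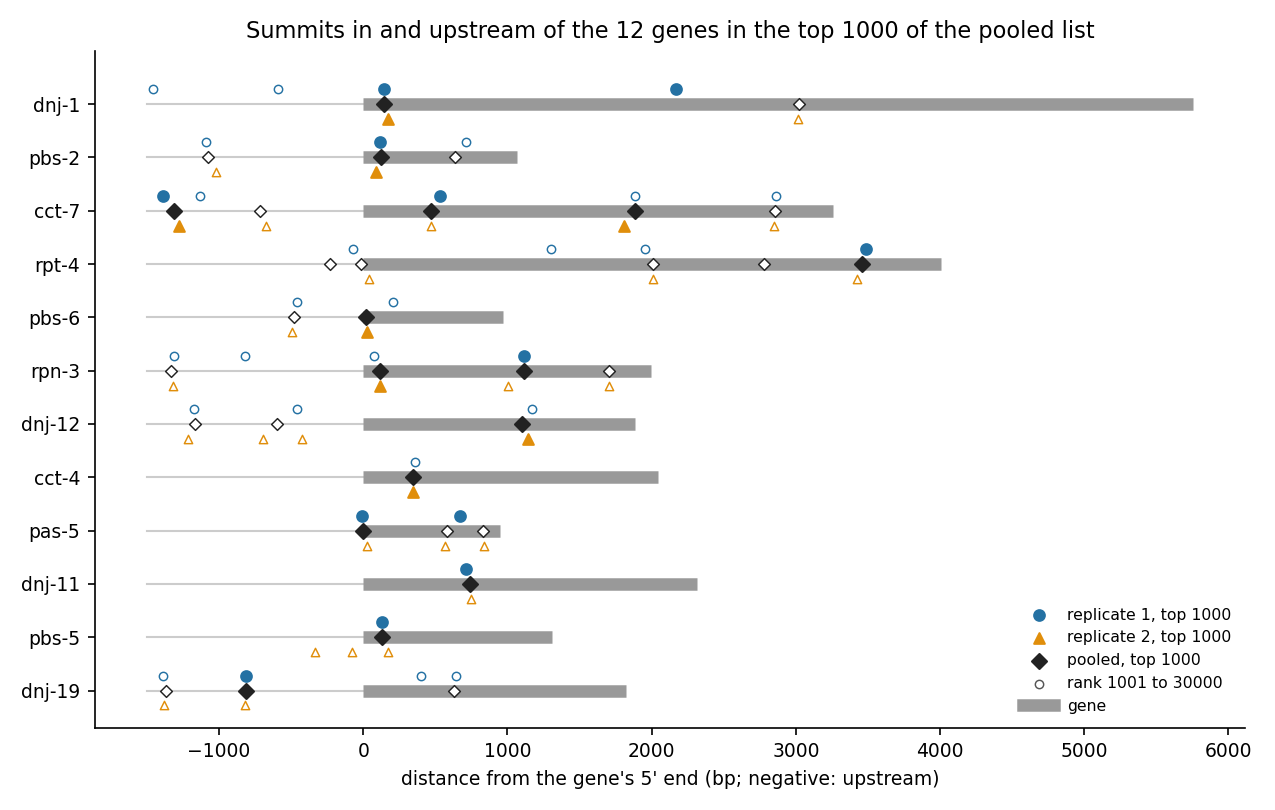
Summits in and upstream of the 12 members in the top 1000 of the pooled list, by distance from the gene's 5′ end in bp (horizontal axis, negative upstream); grey bars are the genes, thin lines the 1500 bp upstream, and marks above, on and below each bar are summits of replicate 1, the pooled list and replicate 2, filled when in the top 1000. Filled marks of all 3 lists fall together in dnj-1 and pbs-2 and upstream of cct-7, while in rpn-3 those of the replicates stand apart, at 1115 bp and 116 bp.

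The windows of the 70 genes were richer in coding sequence, with 41.9% of bases coding against 32.9% over all protein-coding genes, and richer in GC, at 37% against 35.8%. Within their own coding exons, the 70 genes held 11 top 1000 summits of the pooled list in 87.3 kb, or 0.126 per kb, against 0.0204 per kb in the coding exons of all protein-coding genes. The density of pooled summits of any rank in their own coding exons was 0.607 per kb against 0.385 per kb. The GC content within 100 bp of the pooled top 1000 summits averaged 43.3% ± 6.96 (SD over 15 summits) in these windows, against 40.3% ± 8.11 (SD over 900 summits) over all protein-coding genes. Over summits of any rank it averaged 39.7% ± 7.3 (SD over 120 summits) against 36.4% ± 7.73 (SD over 24619 summits), and 35.4% of all genome bases are G or C. Coding share and GC content were thus higher along with the ranks, and their part in the result was not tested.

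By distance, pooled summits of any rank in the 70 genes were densest in the first 500 bp of the gene, at 0.629 per kb against 0.37 per kb over all protein-coding genes. In the 500 bp just upstream of the 5′ end, where promoters lie, the density was 0.2 per kb, from 7 summits, against 0.265 per kb. From 1000 to 1500 bp upstream it was 0.543 per kb against 0.318 per kb. Over the whole 1500 bp upstream and the gene, of the 56 members with a pooled summit, the best lay upstream inside another coding gene in 16 (28.6%), beside 18% of the protein-coding genes with a summit, and upstream in no coding gene in 1, rpn-11 (1.79%), beside 20.6%.

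Letters of known motifs were searched on both strands within 100 bp of the pooled summits. TTCNNGAA, the core of the heat shock element bound by HSF-1, was present at 15 of the 120 member summits (12.5%), against 13.4% of all pooled regions, and at 1 of the 15 in the top 1000, in pbs-5, against 11.5% of the top 1000 regions. TAATTA, a core bound by many homeodomain proteins, was present at 13 member summits (10.8%), against 10.4%, and at 0 of the 15 in the top 1000, against 7.1%. CACGTG, the E-box, was present at 3 (2.5%), against 4.01%, and at 1 of the 15, a cct-7 summit, against 5.9%. No pair of these motifs can overlap. In the promoters, from 250 bp before to 50 bp after the 5′ end, TAATTA was present in 18 of the 70 genes (25.7%), against 15.5% of all promoters, TTCNNGAA in 15 (21.4%), against 18.9%, and CACGTG in 3 (4.29%), against 5.82%. A match is a run of letters and not a bound site.

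Genes that work with these complexes were looked up by name in the same windows. Of 19 proteasome partners, 2 were in the pooled top 1000, beside 5.65% of all protein-coding genes: cdc-48.1, the segregase that extracts ubiquitin-tagged proteins, at rank 433 in an intron, and aip-1, a cap-associated protein, at rank 872. The aip-1 summit lay 1261 bp upstream, inside a coding exon of ddx-17. In replicate 1 the top 1000 held 0 of the 19, beside 5.62% of all protein-coding genes, and in replicate 2 it held 1, aip-1, at rank 96, beside 5.54%. Of 21 chaperone partners, the top 1000 of each replicate held 2, beside 5.62% of all protein-coding genes in replicate 1 and 5.54% in replicate 2. In the pooled top 1000 there were 3, beside 5.65%, all with their best pooled summit in a coding exon of the gene itself. They were hsp-1, the cytosolic Hsp70, with best ranks of 701 in replicate 1, 1013 in replicate 2 and 328 in the pooled list, hsp-6, the mitochondrial Hsp70, with 813, 709 and 943, and hsp-110, a nucleotide exchange factor of Hsp70, with 1383, 41 and 256. The replicate 2 region of rank 41 is the one inside rpn-3 described above, which lies upstream of hsp-110, and the 2 genes share it. Another replicate 2 region, of rank 61, lay within hsp-110 itself. Of these partners hsp-6 alone was in the top 1000 of both replicates.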

How the data were processed

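ALR-1-GFP ChIP-seq of whole L1 larvae was deposited as ranked regions in the ce11 build, per the labels. Column 7 of each list is the signal value the authors gave each region. Per the deposited text files, each replicate list was made with alignments of the replicate and with a control, the pooled list from both, and the IDR list from these 3. Which aligner, peak caller and settings were used is not given in the sources. Depth is unknown, so no counting interval is given.

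Regions were ranked by signal within a list and summits assigned to the gene or the 1500 bp upstream, with Ensembl release 115 genes on WBcel235, the same assembly. Mitochondrial genes were left out. Summits in different lists matched within 200 bp. Named members are those with an IDR peak, a top 1000 region in any list or the best pooled rank of their family. Members, partner lists and rules were chosen with earlier results of these data known, so no test of a gene set was made. Promoters were read from the genome, and sequences are those of WBcel235. None of the printed sequences is from chromosome I, which holds 4 of the members in the pooled top 1000. Other windows, rank limits and single replicates were tried as alternatives. The assignment was tested on simulated data. Python 3.11.15, numpy 2.4.6 and pandas 2.3.3 were used, with figures from matplotlib 3.10.9.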

Additional observations from a re-analysis of the deposited data

How the results depend on the processing

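Of 63 recomputed values, 44 were counted as close to those reported, a loose label. It took in the members with a pooled summit of any rank from 1500 bp before to 500 bp after the 5′ end. These were 39 (55.7%, beside 49.7% of all protein-coding genes), against 56 (80%, beside 68.8%) as reported. The excess at any rank was thus smaller in that window. The limit of 1000 was replaced by as many regions as the IDR list holds, by 500 and by 3000. In the pooled list 4, 7 and 24 members were then called (all protein-coding genes 1.25%, 3.13% and 14.1%). In both replicates 0, 2 and 8 were called (0.24%, 0.881% and 5.95%). The pooled summits within the limit per kb were 0.0131, 0.0261 and 0.104, against 0.00271, 0.00711 and 0.0361 over all protein-coding genes. With summits in the gene only, the median best pooled rank was 8461.5 and the density 0.0646 per kb. Over all protein-coding genes these were 10382 and 0.0126 per kb. With a window around the 5′ end (1500 bp before to 500 bp after it) they were 4640 and 0.0714 per kb in the members. Over all protein-coding genes they were 12413 and 0.0161 per kb. The members called through another gene were 1 as reported (1.43%, beside 1.3% of all protein-coding genes). They were 0 with 500 bp upstream (beside 0.195%), with the gene only (beside 0%) and at a limit of 500 (beside 0.796%). They were 3 with 3000 bp upstream (4.29%, beside 2.36%) and 4 at a limit of 3000 (5.71%, beside 2.54%). With replicate 1 left out they were 2 (2.86%, beside 1.18%), and with replicate 2 left out 1 (1.43%, beside 1.21%). Limits and windows set these changes by their construction. Replicate lists stand in for a left-out replicate, since the pooled list cannot be rebuilt from regions. No paired analysis was possible because there is 1 group.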
